A study of Mus musculus with 6 samples.

Results

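The enteric neuron and glia genes are 8 mouse genes, taken by symbol: Vip, Nos1, Chat, Tac1, Elavl4 and Ret for neurons and Gfap and S100b for glia. All 8 were found among the 20533 genes of the table, in all 6 libraries. Male C57BL/6 mice, wild type and 7 weeks old, gave the RNA, which was taken from the distal colon on day 7. The 3 groups, of 2 libraries each, were mice given 2% dextran sulphate sodium (DSS, a polysaccharide that injures the colonic epithelium) plus montmorillonite powder (an adsorbent clay), mice given 2% DSS alone, and mice given water. The sources used here give no dose for the clay. Nothing in the labels ties each library to a mouse of its own, so p-values measure only the spread between these libraries.

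The wall of the colon holds its own nervous system. Neurons of the myenteric plexus, between the muscle layers, drive contraction and relaxation, and neurons of the submucosal plexus govern secretion and blood flow in the mucosa. Excitatory motor neurons release acetylcholine and the tachykinin substance P, while inhibitory motor neurons release nitric oxide and vasoactive intestinal peptide. Enteric glia surround the neurons and run into the mucosa.

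Values are normalised read counts, that is reads divided by 1 size factor per library. Totals of the recovered whole reads were 6395768 and 4494666 in DSS plus montmorillonite, 21481594 and 15212981 in DSS, and 8936826 and 3741494 in water, so that 1 read equalled 0.335 at the greatest depth and 2.27 at the lowest. All 9 epithelial and 10 smooth muscle marker genes had reads in every library. The libraries also differed in tissue of other kinds: skeletal muscle genes summed to 198 to 4229 in DSS plus montmorillonite, 140 to 3343 in DSS and 332 to 709 in water. Squamous and melanocyte genes summed to 167 to 7473, 214 to 39053 and 87.3 to 400.3 in the same order of groups. The DSS plus montmorillonite libraries lay apart from each other: across genes, log2 values of replicate 1 correlated at 0.959 and 0.947 with water, and those of replicate 2 at 0.948 and 0.954 with DSS.

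The 250 bases before the RefSeq start of Vip and of Gfap, the members with the largest fold changes between DSS and water, are shown as the DNA next to the transcripts that differed most. Promoters in the RefSeq table (GRCm38.p6) matched 7 of the 8 members. Vip lies on the plus strand, chr10:5638968-5639217, and Gfap on the minus strand, chr11:102897201-102897450. Neither window holds bases of the GENCODE M21 exons of Vip or Gfap, and exons of other genes were not checked. The Gfap start of RefSeq lies inside the longer GENCODE gene. Capitals mark TGACG, the core of the cAMP response element, on either strand.
Vip: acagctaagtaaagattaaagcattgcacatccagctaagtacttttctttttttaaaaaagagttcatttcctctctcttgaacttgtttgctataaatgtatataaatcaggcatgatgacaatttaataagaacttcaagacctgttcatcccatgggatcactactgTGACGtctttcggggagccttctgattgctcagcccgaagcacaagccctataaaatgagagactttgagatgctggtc
Gfap: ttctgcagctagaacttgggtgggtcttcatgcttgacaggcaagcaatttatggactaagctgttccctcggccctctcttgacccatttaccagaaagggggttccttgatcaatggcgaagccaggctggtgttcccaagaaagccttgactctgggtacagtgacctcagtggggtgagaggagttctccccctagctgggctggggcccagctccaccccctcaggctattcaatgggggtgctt
The Vip window held TGACG once, starting 79 bases before the start, and the Gfap window did not hold these letters. TGACG was found in 17.8% of the 32851 promoter windows of the same length. Besides Vip, a window of Nos1, Chat, Tac1 and Elavl4 held it. A gene can have several windows, and not every Elavl4 window held TGACG. The shares count windows and not genes, so they cannot be set against the number of members with a match. The full palindrome TGACGTCA, present in 1.55% of windows, was in no member's window. The E-box CANNTG, searched on both strands, was present in 66.2% of windows. It was in a window of Nos1, Chat, Tac1, Elavl4 and S100b, though not in every Elavl4 window, and not in those of Vip or Gfap. With TGACG once in the Vip window and neither motif in the Gfap window, no overlap between motifs was possible there.

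The first comparison, of DSS with water, asks which nerve and glia transcripts the injured colon held more or less of. Of the 8 members 6 rose and none fell: Vip, Gfap, Ret, Elavl4, Nos1 and Tac1, by 2.90-fold to 8.29-fold on the scale of log2(value + 1). Over all 20307 genes tested, 7.90% were called higher and 7.18% lower by the same rule (limma, adjusted p below 0.05 in the fit of the 4 libraries compared). The median log2 fold change was 2.53 over the members and 0.10 over all genes. No overlap between DSS and water was seen in 7 members, all higher in DSS, against 33.9% of all genes (28.5% were lower without overlap). In bulk tissue, a change in the number or share of cells of a type and a change in RNA per cell cannot be told apart. In a fit of all 6 libraries no member and no gene passed (smallest adjusted p = 0.0576, 4662 genes at an unadjusted p under 0.05), while edgeR and DESeq2 on the recovered reads of the 4 libraries each called 6 members. Over all genes, edgeR called 14.7% (8.20% higher, 6.53% lower) and DESeq2 19.9% (10.6% higher, 9.34% lower). No member, and none of the 20307 genes in limma, passed without DSS replicate 1, without DSS replicate 2 or at equal depth (6256, 4795 and 5944 genes at an unadjusted p under 0.05). Without water replicate 1 the calls were 1 member among 240 genes called higher (48 lower), and without water replicate 2 they were 2 members among 253 (64 lower). In these 5 settings the log2 fold change was 2.69 to 3.34 for Vip, 2.73 to 3.37 for Gfap, 2.28 to 2.91 for Ret, 2.26 to 2.94 for Elavl4, 1.79 to 2.97 for Nos1 and 1.35 to 1.72 for Tac1.

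**Figure D1:**
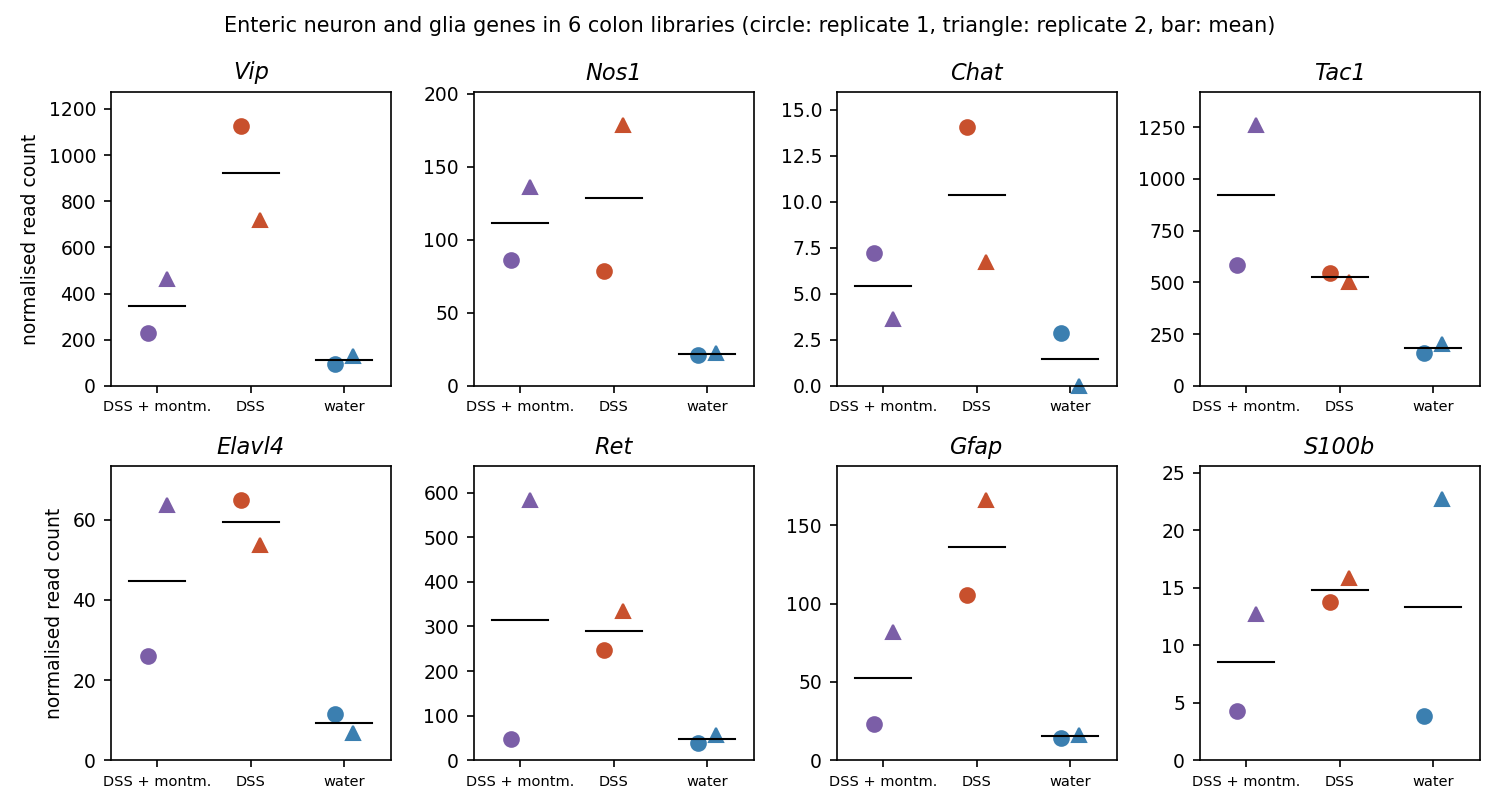
Normalised read count (vertical axis, from 0) of each of the 8 members in every library, for DSS plus montmorillonite, DSS and water from left to right; circles are replicate 1, triangles replicate 2 and bars the mean of 2 libraries. The DSS points lie above the water points in all members but S100b, and the DSS plus montmorillonite libraries of Ret stand far apart (47.5 and 583).

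Among the inhibitory transmitter genes, Vip encodes the precursor of vasoactive intestinal peptide, which relaxes muscle and drives secretion. It lies at GRCm38 chromosome 10, 5639218 to 5647617 (ENSMUSG00000019772.5). Vip had 1128 and 721 in the DSS libraries, against 94.1 and 130 in the water libraries. Each DSS value was far above either water value, and the log2 fold change was 3.02 ± 0.29 (SE; limma adjusted p = 0.00643, and 0.141 in the fit of 6 libraries). Nos1 (chromosome 5, 117781032 to 117958840) encodes neuronal nitric oxide synthase, the enzyme of nitrergic inhibitory neurons. Nos1 had 78.4 and 178 in DSS, against 21.1 and 22.7 in water. The groups did not overlap, although the DSS libraries themselves were well apart (log2 fold change 2.38 ± 0.48 SE, limma adjusted p = 0.0277, 0.141 with 6 libraries). Nos1 is also made by skeletal muscle. The skeletal muscle genes summed to 140 in DSS replicate 1 and 3343 in replicate 2, and their part in the Nos1 values was not tested. Nos1 shares exon bases with Gm26995 on the other strand, and the sources used here do not say whether counting used strand.

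Among the excitatory genes, Tac1 (chromosome 6, 7554879 to 7565834) encodes the precursor of substance P and neurokinin A. Tac1 had 547 and 501 in DSS, against 158 and 205 in water. It had the smallest change of the members that rose, with little spread within either group (log2 fold change 1.53 ± 0.22 SE, limma adjusted p = 0.0122, 0.141 with 6 libraries). Tac1 is also made by enterochromaffin cells of the epithelium, and the 11 enteroendocrine genes, of which 0 passed, summed to 1379 to 3568 in DSS and 1583 to 1778 in water. Chat (chromosome 14, 32408203 to 32465989), the enzyme that makes acetylcholine, was the sparsest member. Chat had 42 and 14 reads in DSS, against 3 and 0 in water. The ratio of pooled normalised reads was 5.45, with an exact 95% counting interval of 1.77 to 27.2, and Chat did not pass (log2 fold change 2.45 ± 0.87 SE, limma adjusted p = 0.114). Counting intervals cover counting error only. The vesicular acetylcholine transporter gene Slc18a3 lies within Chat without sharing exon bases.

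The remaining neuronal members were Elavl4, an RNA-binding protein of neurons, and Ret, the receptor tyrosine kinase for ligands of the GDNF family, needed for enteric neurons to form. Elavl4 (chromosome 4, 110203722 to 110351909) had 65.0 and 53.7 in DSS, against 11.5 and 6.82 in water. Both water values rested on few reads, 12 and 3 (log2 fold change 2.60 ± 0.48 SE, limma adjusted p = 0.0228, 0.141 with 6 libraries). Ret (chromosome 6, 118151745 to 118197718) had 247 and 334 in DSS, against 37.4 and 56.9 in water. The groups were well separated (log2 fold change 2.61 ± 0.32 SE, limma adjusted p = 0.00954, 0.206 with 6 libraries). Ret and Elavl4 are also expressed outside neurons, and enteroendocrine sums are given above.

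The glial members parted. Gfap (chromosome 11, 102887336 to 102900912), the intermediate filament of astrocytes and glia, had 106 and 166 in DSS, against 14.4 and 15.9 in water. It had the largest fold change of the members (8.29-fold, log2 3.05 ± 0.39 SE, limma adjusted p = 0.0106, 0.141 with 6 libraries). S100b (chromosome 10, 76253853 to 76261159), a calcium-binding protein used to mark glia, had 13.7 and 15.8 in DSS, against 3.84 and 22.7 in water. The water libraries, at 4 and 10 reads, lay on either side of the DSS libraries, and S100b did not pass (log2 fold change 0.55 ± 0.84 SE, limma adjusted p = 0.687). Without water replicate 1 the S100b difference turned negative, at -0.59.

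**Figure D2:**
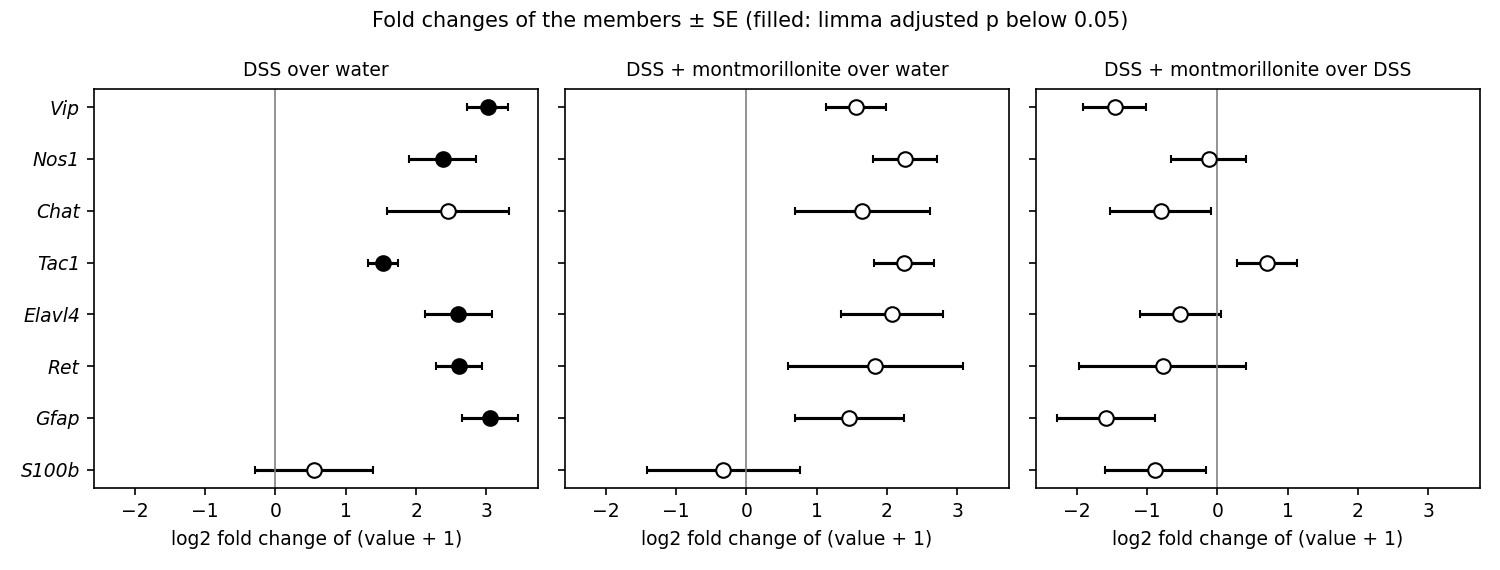
Log2 fold change of (value + 1) ± SE of each member (horizontal axis) in 3 comparisons of 2 against 2 libraries; filled points passed limma at an adjusted p below 0.05. In DSS over water 6 members are filled, from 1.53 (Tac1) to 3.05 (Gfap), and no member is filled in the comparisons that hold DSS plus montmorillonite.

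Per kilobase of exon, the levels of the members can be set against each other only roughly. The length used was that of all annotated exons of a gene merged, and not of the transcripts present. In DSS the order of mean values per kb was Vip (272), Tac1 (154), Ret (42.9), Gfap (32.3), Nos1 (11.5), Elavl4 (11.0), S100b (9.96) and Chat (2.21). Vip stood above Tac1 in both DSS libraries (331 and 212 per kb for Vip, 161 and 147 for Tac1). Ret and Gfap overlapped, as did Nos1, Elavl4 and S100b. In water the order was Tac1 (53.4), Vip (32.9), S100b (8.96), Ret (6.97), Gfap (3.59), Nos1 (1.97), Elavl4 (1.70) and Chat (0.306). There Tac1 stood above Vip in both libraries, while S100b overlapped Ret and Gfap, and Nos1 overlapped Elavl4. In DSS plus montmorillonite it was Tac1 (271), Vip (102), Ret (46.6), Gfap (12.4), Nos1 (9.98), Elavl4 (8.31), S100b (5.74) and Chat (1.15), with Tac1 above Vip in both libraries and Ret overlapping all others except Tac1 and Chat. Gfap, Nos1, Elavl4 and S100b also overlapped each other there.

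The list of general neuronal genes shows how far the members' direction was shared. Of 16 pan-neuronal genes 4 rose in DSS against water, none fell and 12 did not pass. The shares over all genes were 7.90% called higher and 7.18% lower. The pan-neuronal median log2 fold change was 1.24. Among those that rose, Tubb3, the neuronal tubulin, rose 5.30-fold (limma adjusted p = 0.0180), the peripheral neurofilament gene Prph 4.13-fold (0.0443) and Stmn2, a regulator of microtubules in axons, 2.13-fold (0.0372). All 16 had a positive log2 fold change, and in 13 the groups did not overlap, against 33.9% of all genes. With 6 libraries none of the 16 passed.

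Of the 15 transmitter genes tested, 6 rose, 1 fell and 8 did not pass, where 7.90% of all genes were called higher and 7.18% lower. The median log2 fold change was 2.40, or 1.89 with genes without a read in water at their bound. Gal, the neuropeptide galanin, had 99.8 and 72.4 in DSS, against 1.92 and 0 in water. Over the 2 water reads the ratio was 65.6 (counting interval 18.1 to 543, limma adjusted p = 0.00933). Penk, the enkephalin precursor, rose 7.53-fold (limma adjusted p = 0.0185). Dbh, which makes noradrenaline, and Adcyap1, the precursor of the Vip-related peptide PACAP, had no read in water; with the floor set at 3 reads over both water libraries, DSS was at least 8.47-fold higher for Dbh and 3.70-fold for Adcyap1. The remaining genes that rose were Cartpt, a neuropeptide precursor (5.27-fold), and Slc18a3 (6.47-fold, 25.5 and 49.9 in DSS, against 4.80 and 4.55 in water). Slc5a7, which takes choline up into cholinergic terminals, did not pass (72.0 and 47.0 in DSS, against 37.4 and 68.2 in water, adjusted p = 0.789). Ddc, an amine-forming decarboxylase that epithelial cells also make, fell to 0.227 of water.

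The sensory peptide gene Calcb parted the DSS libraries, with 14.4 and 1221 in DSS, against 1.92 and 13.6 in water, and did not pass. Squamous and melanocyte genes summed to 214 and 39053 in the same DSS libraries, and their part in Calcb was not tested. Th and Slc17a6, also on the list, are not among the values analysed here.

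Receptors for the products of Vip, Tac1, Nos1 and Chat came out as 3 of 9 that rose, 1 that fell and 5 that did not pass. Shares of all genes were 7.90% called higher and 7.18% lower. The log2 fold change was positive in 8 of the 9, and 6 were higher without overlap, against 33.9% of all genes. Tacr1, the substance P receptor, had 305 and 381 in DSS, against 33.6 and 34.1 in water. This was the largest change among the receptors (9.80-fold, log2 3.29 ± 0.27 SE, limma adjusted p = 0.00490). Tacr2, the neurokinin A receptor of muscle, had 56.3 and 68.1 in DSS, against 28.8 and 59.1 in water (adjusted p = 0.430). The Vip receptors went in opposite directions. Vipr1, the main Vip receptor of the epithelium, fell to 1135 and 714 in DSS, against 2644 and 2445 in water (log2 fold change -1.50 ± 0.25 SE, limma adjusted p = 0.0177). Vipr2 rose to 50.3 and 68.1 in DSS, against 18.2 and 18.2 in water (3.10-fold, limma adjusted p = 0.0487). Of the nitric oxide receptor subunits Gucy1b1 rose 2.22-fold (limma adjusted p = 0.0292) and Gucy1a1 was 1.54-fold higher without passing (0.119). Prkg1, the kinase downstream, and the muscarinic receptor genes Chrm2 and Chrm3 did not pass (adjusted p of 0.760, 0.274 and 0.331). Beside the fall of Vipr1, 8 of 9 epithelial marker genes fell, with a median log2 fold change of -1.47; the part of that shift in Vipr1 was not tested.

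Among the genes of Ret signalling and of the endothelin pathway that works beside it, 2 of 11 rose and 9 did not pass. The share of all genes called higher was 7.90%. Artn, the Ret ligand artemin, had 71.4 and 103 in DSS, against 5.76 and 4.55 in water (14.2-fold, log2 3.82 ± 0.47 SE, limma adjusted p = 0.00933). Ednrb, the endothelin receptor B, had 709 and 1068 in DSS, against 62.4 and 75.0 in water (12.5-fold, limma adjusted p = 0.00362). Each was separated from water by more than the gap between its DSS libraries. Gdnf, Nrtn and Pspn, the other ligands of the family, did not pass (adjusted p of 0.446, 0.774 and 0.685). The co-receptors did not pass: Gfra1 was 2.75-fold and Gfra2 2.35-fold higher (adjusted p of 0.130 and 0.0680), Gfra4 1.83-fold (0.151), and Gfra3, the co-receptor of artemin, had 10.1 and 7.19 in DSS, against 14.4 and 6.82 in water. Edn3, the ligand of Ednrb, had 26.1 and 18.2 in DSS, against 30.7 and 40.9 in water (adjusted p = 0.349).

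Of 12 other glial genes 2 rose, 1 fell and 9 did not pass, with a median log2 fold change of 1.42. Over all genes 7.90% were called higher and 7.18% lower, and the counts here are small. The groups did not overlap in 8 genes that were higher in DSS, against 33.9% of all genes. In 2 that were lower they did not overlap either, against 28.5% of all genes. With 6 libraries none of the 12 passed. Scn7a, a sodium channel of glia, rose 2.86-fold (limma adjusted p = 0.0169). Fabp7, a fatty acid binding protein of glial progenitors, had no read in water and was at least 4.19-fold higher in DSS. Sox10, the transcription factor of glia, had 25.1 and 36.0 in DSS, against 7.68 and 15.9 in water, and did not pass (adjusted p = 0.157). Erbb3, which epithelial cells also make, fell to 0.479 of water, and Entpd2 stood at 0.485 without passing (0.0759).

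**Figure D3:**
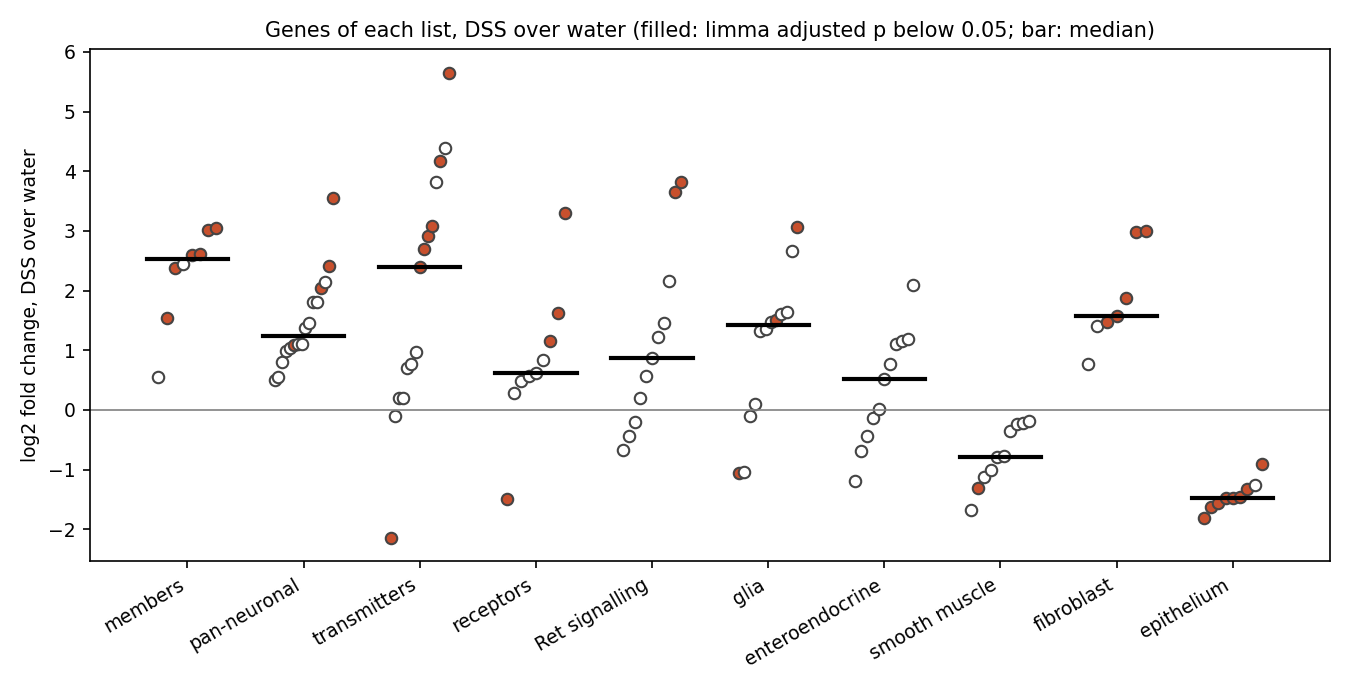
Log2 fold change, DSS over water (vertical axis), of every gene tested in the members' list and 9 other lists; filled points passed limma at an adjusted p below 0.05 and bars are list medians. The members' median of 2.53 and the pan-neuronal median of 1.24 are above 0, and the smooth muscle median of -0.78 and the epithelial median of -1.47 below it.

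Markers of the tissue around the plexuses changed in part. The counts below stand beside 7.90% of all genes called higher and 7.18% called lower. Smooth muscle genes, which mark the layers that the myenteric plexus lies between, had a median log2 fold change of -0.78 in DSS against water, with 1 of 10 falling and none rising, and summed to 15859 and 28733 in DSS, against 29053 and 49253 in water. Epithelial genes summed to 64996 and 44650 in DSS, against 153778 and 160532 in water. Fibroblast genes, 5 of 7 of which rose, had a median of 1.58. All 6 neutrophil genes and 4 of 7 lymphocyte genes rose. Of 3 genes of the interstitial cells of Cajal, the pacemakers of gut muscle, 1 rose and 1 fell, and 1 of 7 tuft cell and 1 of 4 adipose genes tested rose. No skeletal muscle gene of 10 and no squamous or melanocyte gene of 9 passed. The part of these shifts in tissue makeup in the rise of the members was not tested. Nor was their part in the rise of the pan-neuronal, transmitter, receptor, Ret signalling and glial genes named above, such as Penk, Tacr1, Artn and Ednrb. Scaled by library size only, the median of all genes moved from 0.10 to 0.33, with 2165 genes called higher and 876 lower in place of 1605 and 1459, and 6 members passed.

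Ratios between genes in a single library do not depend on the size factor. Each member was therefore set against the summed reads of the 16 pan-neuronal genes of its own library, a measure chosen after the values were seen. The part of other cell types in the reads of these 16 genes was not tested. The smallest p that an exact permutation test can give here is 0.333, so the ratios are descriptions with exact 95% counting intervals. Vip had 36.4 and 43.9 reads per 100 pan-neuronal reads in DSS plus montmorillonite, 97.7 and 56.9 in DSS, and 29.4 and 22.0 in water. The DSS libraries were above all others. Gfap had 3.64 and 7.75 in DSS plus montmorillonite, 9.17 and 13.1 in DSS, and 4.50 and 2.70 in water, again highest in DSS, although the intervals of DSS replicate 1 and DSS plus montmorillonite replicate 2 overlapped. Tac1 had 92.0 and 119 in DSS plus montmorillonite, 47.4 and 39.6 in DSS, and 49.5 and 34.7 in water. Relative to pan-neuronal reads, Tac1 in DSS lay within the range of the water libraries, and only the DSS plus montmorillonite libraries were above it.

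Ret had 7.50 and 55.2 reads per 100 pan-neuronal reads in DSS plus montmorillonite, 21.4 and 26.3 in DSS, and 11.7 and 9.65 in water. Its DSS plus montmorillonite libraries were the lowest and the highest of the 6. Nos1 had 13.6 and 12.9 in DSS plus montmorillonite, 6.79 and 14.1 in DSS, and 6.61 and 3.86 in water; the counting intervals of DSS replicate 1 (5.92 to 7.76) and water replicate 1 (4.08 to 10.2) overlapped. Elavl4 had 4.09 and 6.02 in DSS plus montmorillonite, 5.63 and 4.24 in DSS, and 3.60 and 1.16 in water, with overlapping intervals throughout except between water replicate 2 and the DSS libraries and DSS plus montmorillonite replicate 2. Chat and S100b had at most 42 reads in any library, and their ratios of 0 to 1.22 and 0.682 to 3.86 were not resolved at this depth between most libraries.

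**Figure D4:**
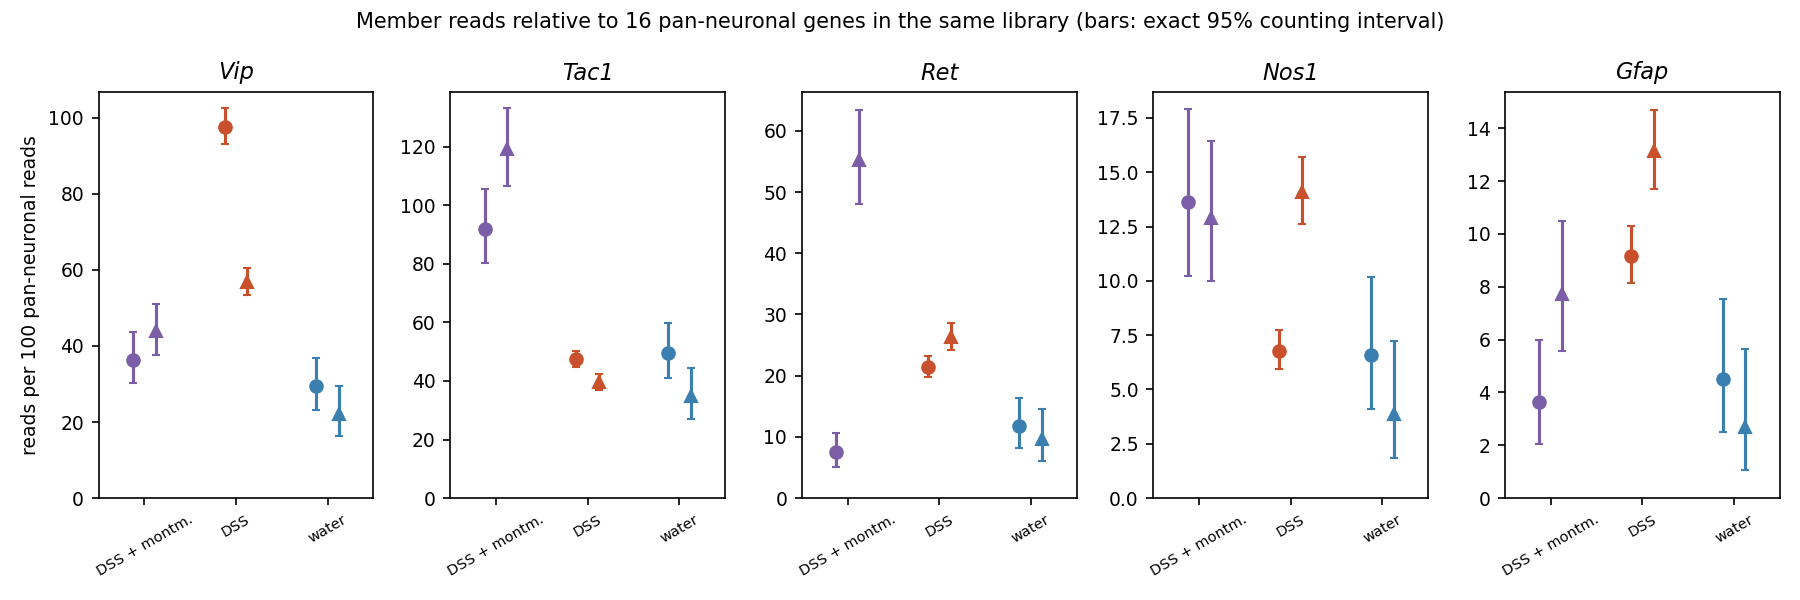
Reads of 5 members per 100 reads of 16 pan-neuronal genes in the same library (vertical axis, from 0), for DSS plus montmorillonite, DSS and water; circles are replicate 1, triangles replicate 2, and bars exact 95% counting intervals. Vip is highest in DSS (97.7 and 56.9), while Tac1 is highest in DSS plus montmorillonite (92.0 and 119).

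Setting DSS plus montmorillonite against water asks how far nerve and glia transcripts under both agents stood from the untreated level. No gene passed in limma (0.00% of 20307 called, 1576 at an unadjusted p under 0.05) or in edgeR, so no member did. DESeq2 called 0.985% of genes (0.428% higher, 0.556% lower), among them Nos1 (adjusted p = 0.0426) and Tac1 (0.00139). The groups did not overlap in 6 members, all higher with DSS plus montmorillonite, against 21.5% of all genes (19.2% were lower without overlap). The median log2 fold change was 1.74 over the members and 0.06 over all genes.

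Tac1 had 583 and 1259 in DSS plus montmorillonite, against 158 and 205 in water. Even the lower treated library was above both water libraries (log2 fold change 2.24 ± 0.43 SE, limma adjusted p = 0.629, edgeR 0.371). The enteroendocrine genes, none of which passed, summed to 3497 and 3619 in DSS plus montmorillonite, against 1778 and 1583 in water; among them Chga, the granin of endocrine cells, had 406 and 398, against 165 and 164 in water. Their part in the Tac1 values was not tested. Nos1 had 86.3 and 136 in DSS plus montmorillonite, against 21.1 and 22.7 in water (2.26 ± 0.45 SE, limma adjusted p = 0.629). Skeletal muscle genes summed to 4229 and 198 in these treated libraries, against 709 and 332 in water, and their part in the Nos1 values was not tested. Vip had 230 and 463 in DSS plus montmorillonite, against 94.1 and 130 in water (1.56 ± 0.43 SE, limma adjusted p = 0.629), and Elavl4 25.9 and 63.6, against 11.5 and 6.82 in water (2.07 ± 0.73 SE, 0.629).

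Gfap had 23.0 and 81.8 in DSS plus montmorillonite, against 14.4 and 15.9 in water (limma adjusted p = 0.653). Ret had 47.5 and 583, against 37.4 and 56.9 in water, so that replicate 1 fell between the water libraries and replicate 2 was above all 5 other libraries (0.691). S100b had 4.31 and 12.7, against 3.84 and 22.7 in water, with full overlap (0.933). Chat rested on 5 and 2 reads, against 3 and 0 in water, a difference not detectable at this depth (ratio of pooled reads 2.78, counting interval 0.634 to 16.6).

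Among the receptors and Ret-related genes, replicate 1 of DSS plus montmorillonite again stood near water and replicate 2 near DSS for several. Ednrb had 73.4 and 825 in DSS plus montmorillonite, 709 and 1068 in DSS, and 62.4 and 75.0 in water. Tacr1 had 33.1 and 191 in DSS plus montmorillonite, 305 and 381 in DSS, and 33.6 and 34.1 in water. Artn had 18.7 and 54.5 in DSS plus montmorillonite, above both water libraries (5.76 and 4.55). Vipr1 had 2661 and 1877, against 2644 and 2445 in water, and Vipr2 36.0 and 145, against 18.2 and 18.2 in water. Gucy1b1 had 134 and 200 in DSS plus montmorillonite, against 106 and 125 in water. None of these passed in limma.

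**Figure D5:**
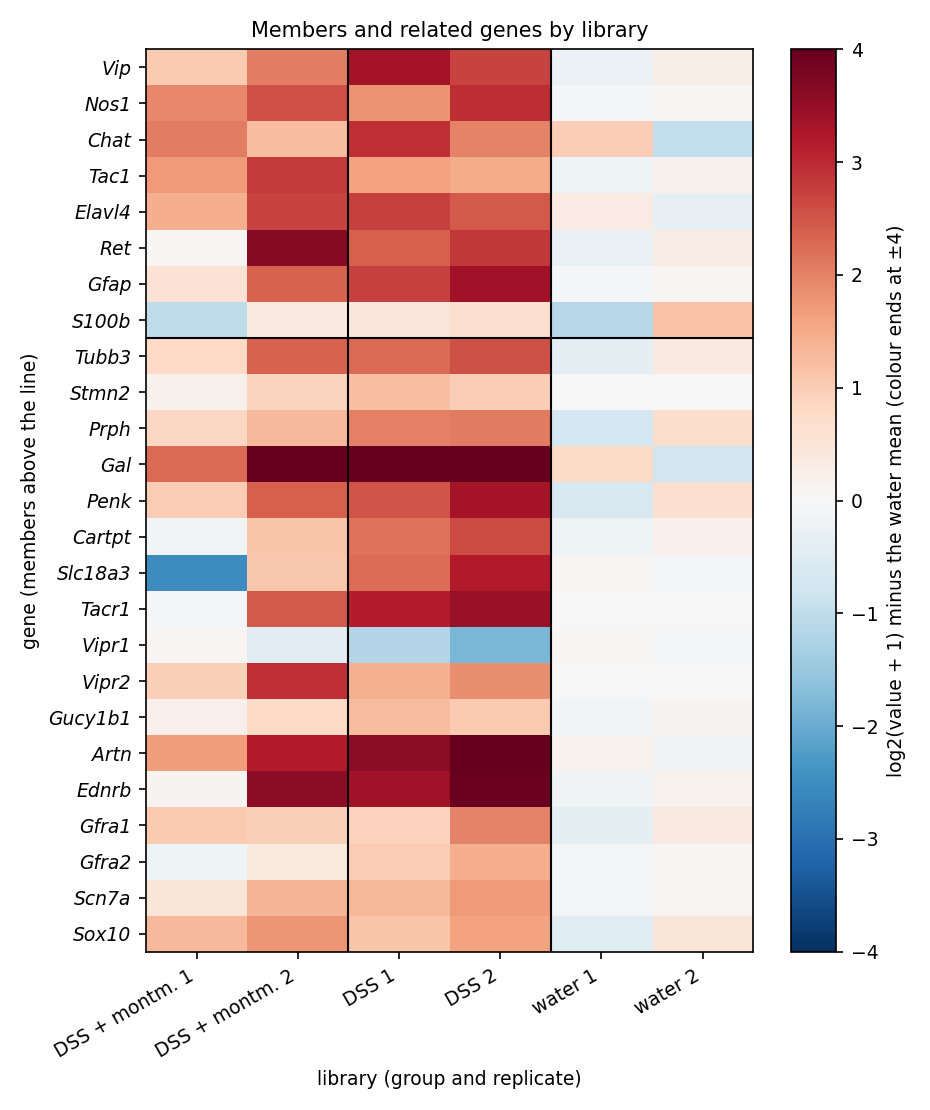
Log2(value + 1) minus the mean of the water libraries (colour, ending at ±4) for the 8 members, above the line, and 17 related genes, below it; columns are the libraries of DSS plus montmorillonite, DSS and water. Replicate 1 of DSS plus montmorillonite is near the water level for Ret, Ednrb and Tacr1, and replicate 2 nearer the DSS level, whereas Tac1 and Nos1 are high in both.

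Setting DSS plus montmorillonite against DSS asks what the clay changed in mice given DSS. This comparison shares its DSS and DSS plus montmorillonite libraries with those above. No gene passed in limma (0.00% called, 1444 at an unadjusted p under 0.05) or edgeR, DESeq2 called 0.374% of genes, and no member passed with any of the 3 tools. The groups did not overlap in 3 members that were lower with montmorillonite, Vip, Gfap and S100b, against 20.6% of all genes, and in 1 that was higher, Tac1, against 19.4% of all genes. Of the tissue markers, none of which passed, all 9 epithelial genes were higher with montmorillonite without overlap (median log2 fold change 1.15), all 10 smooth muscle genes had a positive fold change (0.62) and all 7 fibroblast genes a negative one (-0.92). Their part in the members' values was not tested.

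Vip had 230 and 463 in DSS plus montmorillonite, against 1128 and 721 in DSS (-1.46 ± 0.45 SE on the log2 scale, limma adjusted p = 0.691). On the log2 scale these libraries stood at 34.9% and 68.2% of the way from the water mean to the DSS mean. Gfap had 23.0 and 81.8 in DSS plus montmorillonite, against 106 and 166 in DSS (-1.58 ± 0.70 SE, adjusted p = 0.702), at 18.8% and 77.3% of the way. Tac1 had 583 and 1259, against 547 and 501 in DSS (0.71 ± 0.43 SE, adjusted p = 0.722), at 110% and 182% of the way. S100b had 4.31 and 12.7, on 3 and 7 reads, against 13.7 and 15.8 in DSS (-0.88 ± 0.71 SE, adjusted p = 0.764). The remaining members overlapped between the groups. Nos1 had a log2 fold change of -0.12 ± 0.53 SE, Elavl4 of -0.53 ± 0.58, Chat of -0.81 ± 0.71 and Ret of -0.78 ± 1.19, and with edgeR and DESeq2 that of Ret was positive, at 0.07 and 0.11.

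Vip reads outnumbered those of Tac1 in both DSS libraries and in no other library. Within a library, Vip had 0.395 and 0.368 reads per read of Tac1 in DSS plus montmorillonite, 2.06 and 1.44 in DSS, and 0.594 and 0.633 in water. The exact 95% counting intervals were 0.327 to 0.476 and 0.317 to 0.425 in DSS plus montmorillonite, 1.94 to 2.19 and 1.33 to 1.56 in DSS, and 0.458 to 0.767 and 0.446 to 0.892 in water. The DSS libraries exceeded all others beyond counting error, and the DSS plus montmorillonite libraries were lowest, with the interval of replicate 1 overlapping those of water. This pair was chosen after the values were seen, and the difference between groups was not tested.

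The genes whose pattern over the 6 libraries was most like the mean of the members (each scaled to unit variance on the log2 scale) were Nfasc, Derl3, Zcchc24, Gm15122, A230050P20Rik and Casp12, with Pearson correlations of 0.994 to 0.999 among 13795 genes compared. Nfasc, the axonal adhesion protein neurofascin, had 20.1 and 56.3 in DSS plus montmorillonite, 57.0 and 55.1 in DSS, and 6.72 and 9.10 in water. With 6 points from 3 groups such correlations are common: 8.85% of the genes compared had one above 0.9.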

How the data were processed

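The authors deposited 1 table of normalised read counts (a signal per gene and library) for 6 libraries of mouse colon RNA. The submitters' processing notes name the build mm10 (GRCm38); which tools aligned, counted and normalised is not given in the sources used here. All values (100%) were whole multiples of a smallest step per library, within 0.01 read, so whole reads were recovered. No gene had under 10 reads in all. Symbols, positions and exon lengths came from GENCODE M21 (20500 identifiers found).

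Since the values were normalised and not counts, limma (3.58.1, R 4.3.3), its prior variance following mean intensity, was run on log2(value + 1), two-sided, over 20307 genes with a mean of at least 1, on the 4 libraries compared (2 residual degrees of freedom), with Benjamini-Hochberg adjusted p below 0.05. Alternatives were a fit of 6 libraries, edgeR 4.0.16 and DESeq2 1.42.0 on recovered reads, other pseudocounts, filters and scaling, thinned reads, the replicate number as a block, and leaving out each library. Tests were tested on simulated data in which all genes and groups had the same spread beyond counting error. That run therefore does not show how the tests behave with libraries of a group that lie far apart.

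Members, lists and fits were chosen with earlier results of these data known, among them that the fit of 6 libraries calls no gene and that the DSS plus montmorillonite libraries lie far apart. The 17 lists held 164 genes, 155 of them found. Named genes were the members, up to 4 genes with the smallest p of each neuronal or glial list that passed, and the receptors, ligands and co-receptors of the members' products; others (Cartpt, Slc18a3, Ddc, Calcb, Slc5a7, Sox10, Entpd2, Chga) were chosen after their values were seen. Some genes that the rule takes are left out of the text.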

Additional observations from a re-analysis of the deposited data

How the results depend on the processing

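In DSS against water 6 members passed, also with edgeR, DESeq2, no filter, a mean of at least 10, pseudocounts of 0.1 and 5, and scaling by library size only. The fit of all 6 libraries called 0, as did reads thinned to the shallowest library, and leaving out each library called 0 to 2; the last holds fewer samples, and otherwise the cause was not tested. Calls over all genes went with them: 0 in the fit of 6, thinned, or without either DSS library, 240 higher and 48 lower without water replicate 1, and 253 and 64 without water replicate 2. The log2 fold changes of the 6 stayed between 1.35 and 3.37 in these settings. In DSS plus montmorillonite against water 0 members passed and DESeq2 called 2. Against DSS 0 members passed in every alternative run, although other genes were called with DESeq2 and without DSS plus montmorillonite replicate 2. With the replicate number as a block 7 members passed in DSS against water, Chat being added, while genes called in all came to 2724 higher and 2360 lower, against 1605 and 1459 with no block; deviations of same-numbered libraries correlated at 0.09, 0.08 and 0.30 in the 3 comparisons, and the libraries share only a number. With the filter at 10, Chat was not tested. Scaling by library size only moved the median of all genes from 0.10 to 0.33 in DSS against water and from -0.07 to -0.32 in DSS plus montmorillonite against DSS.

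Signs turned in members that had not passed. S100b ranged from -0.59 to 1.70 in DSS against water, and from -1.48 to 0.82 in DSS plus montmorillonite against water, on leaving out libraries, and was 0.49 in the second of these with thinned reads. In DSS plus montmorillonite against DSS, leaving out libraries gave -2.57 to 1.02 for Ret, -0.71 to 0.46 for Nos1 and -1.16 to 0.10 for Elavl4, and Ret was 0.0716 with edgeR and 0.11 with DESeq2. Depth limits Chat, S100b and, in water, Elavl4.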
